A study of Mus musculus with 28 samples.

Results

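Glucocorticoids are the adrenal hormones of the stress response. In blood cells they bind the glucocorticoid receptor, which moves to the nucleus, raises the transcription of genes that carry its response elements, and lowers the transcription of many inflammatory genes. The genes it raises in leukocytes include several that damp signalling or the hormone's own action, and their levels are therefore commonly read as a trace of hormone exposure. Genes of this kind were chosen by name to ask whether PB MNCs of irradiated mice showed a systemic stress hormone effect. They are Tsc22d3, Fkbp5, Per1, Dusp1, Klf9, Sgk1 and Zbtb16, all raised by glucocorticoids, and Nr3c1, which encodes the receptor. Of these 8 genes, 7 had a probe whose platform annotation gave their symbol alone, and each had 1 probe, which made 7 probes among the 16722 on the array and 7 genes among the 9135 that single-gene probes name. Zbtb16, a zinc finger transcription factor, had no such probe and was not analysed here. All 7 probes passed the filter of at least 5 values in each dose group.

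The PB MNCs came from female C57Bl6 mice aged 10 weeks. Blood was drawn by ocular bleed from nonirradiated controls (0 cGy) and 6 h after a single total body exposure of 50 cGy, 200 cGy or 1000 cGy from a caesium source, mononuclear cells were separated on a density gradient, and each dose had 7 arrays. On each two-colour array the sample RNA was set against a universal mouse reference RNA. The clock time of the bleeds and the handling of the control mice during exposure were not given in the sources used here. Values are centred log2 ratios, the log2 of sample over reference minus the median of that array, so that 0 is the median probe and 1 unit is a doubling relative to it. They compare a probe between samples and not probes with each other. Every dose was compared with the same 7 control arrays, so the 3 dose comparisons are not independent.

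Marker lists of blood cell types were looked at beside the labelled cell type. In controls all 9 B cell probes, all 7 T cell probes and 7 of 10 monocyte probes had mean levels above the array median, and so did all 7 neutrophil, 7 platelet and 3 erythroid probes, although a density gradient is meant to remove neutrophils and red cells. A log ratio to a mixed reference has no zero, so no marker can be called absent. A level above the array median likewise does not measure how many cells of a type were present. These levels therefore cannot check the labelled cell type. Marker means are means over genes, with the probes of 1 gene averaged first. Relative to the control mean, the mean of the 8 B cell genes lay between -2.28 and -1.56 at 200 cGy. It lay between -3.37 and -2.84 at 1000 cGy, against -0.42 to 0.35 in controls, and all 9 probes fell at both doses. The mean of the 6 neutrophil genes lay between 1.72 and 2.79 at 200 cGy and between 2.54 and 3.34 at 1000 cGy, against -0.51 to 1.26 in controls. All 7 neutrophil probes rose at both doses, as did all 10 monocyte and all 7 platelet probes (with quantile normalization 5 platelet probes at 200 cGy, and 7 monocyte and 6 platelet probes at 1000 cGy, while without centring 6 platelet probes at 200 cGy and 9 monocyte probes at 1000 cGy). In bulk samples such as these, fewer cells of a type and less RNA per cell cannot be told apart. A pair of arrays stood apart for the genes described here. Control replicate 7 was far above the other controls for Dusp1 and the neutrophil markers, and 50 cGy replicate 1 was the lowest of its group for all 6 members it measured.

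The receptor's target genes did not move one way. Of the 6 measured genes that glucocorticoids raise, 3 rose at 1000 cGy (Dusp1, Sgk1 and Fkbp5), 2 fell (Tsc22d3 and Per1), and Klf9 did not pass the test. The receptor gene Nr3c1 also rose at that dose, so that 4 of 7 probes rose and 2 fell, where 38.3% of all 16600 probes tested rose and 28.9% fell, and 67.2% were called in either direction (limma, adjusted p under 0.05). At 200 cGy 3 of 7 rose (Dusp1, Klf9 and Sgk1) and Tsc22d3 fell, where 22.2% of all probes rose, 20.9% fell and 43.1% were called. At 50 cGy Klf9 rose and Nr3c1 fell, where 8.23% of all probes rose, 5.13% fell and 13.4% were called. In order of dose the 7 probes had median differences of -0.18, 0.33 and 0.28, beside -0.02, 0.03 and 0.13 for all probes. The high shares of called probes at 200 and 1000 cGy leave little to read from the number of members called.

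The centring of the arrays bears on the smaller differences. Array medians before centring ran from -0.52 to -0.34 at 1000 cGy and from -0.31 to -0.12 in controls, so that without centring the median difference of all probes at 1000 cGy was -0.12 in place of 0.13. Without centring 1 member rose and 2 fell at 1000 cGy, where 3974 probes of the whole array rose and 6610 fell, in place of 6360 and 4796. At 200 cGy, 2 members rose and 2 fell without centring, and the same counts came with quantile normalization. The whole array then gave 2797 probes higher and 4345 lower without centring, and 3349 higher and 3968 lower with quantile normalization, in place of 3688 and 3468. Quantile normalization at 1000 cGy left 4 members higher and 2 lower, with 4402 probes of the whole array higher and 5362 lower.

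**Figure D1:**
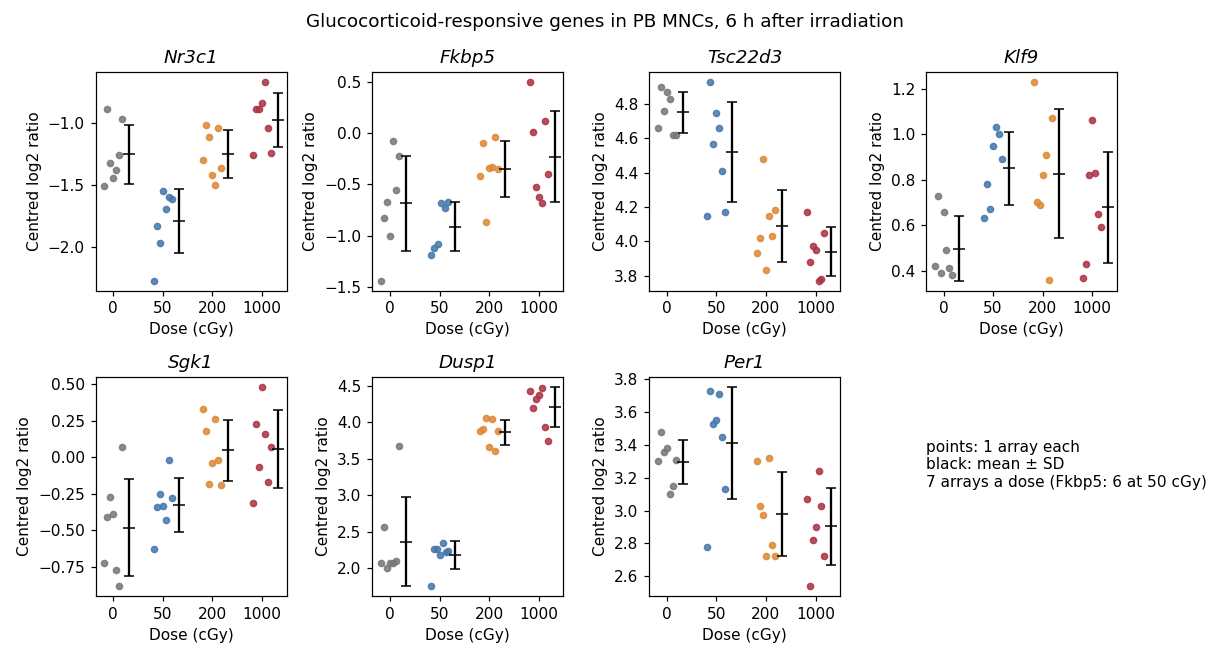
Centred log2 ratio (vertical axis) of each member on each array, by dose in cGy (horizontal axis), with 0 cGy the nonirradiated controls. Coloured points are single arrays, 7 a dose except 6 for Fkbp5 at 50 cGy, and black bars are the mean and SD. Dusp1 at 1000 cGy lies between 3.74 and 4.47, above every control array, and Tsc22d3 at 1000 cGy lies between 3.77 and 4.17, below every control array.

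Nr3c1, the glucocorticoid receptor, was lowest at 50 cGy. Its centred log2 ratio had a lowest, median and highest value of -1.51, -1.32 and -0.89 in controls and of -2.27, -1.69 and -1.55 at 50 cGy. At 200 cGy these values were -1.50, -1.30 and -1.02, and at 1000 cGy they were -1.26, -0.89 and -0.67. Every 50 cGy array was thus below every control array, while the 200 cGy arrays lay within the control range and 4 of the 7 arrays at 1000 cGy were above the highest control. The means were -1.79 ± 0.26 at 50 cGy and -1.25 ± 0.24 in controls (SD, n = 7 each), a difference of -0.54 (SE 0.122, 95% interval -0.79 to -0.28, limma adjusted p = 0.00469), or 0.69-fold. Nr3c1 was the only member whose 50 cGy and control arrays did not overlap, and 1.90% of all probes lay below the controls without overlap in that comparison. At 200 cGy the difference was 0.00 (interval -0.25 to 0.25, adjusted p = 0.987). The mean of -0.98 ± 0.22 at 1000 cGy was above that of controls by 0.28 (SE 0.122, adjusted p = 0.0465), but the difference was 0.03 (adjusted p = 0.852) without centring, and the call was lost in 14 of the 28 fits that each left out 1 array (control replicates 1 and 3 to 6, 50 cGy replicates 2 and 5, 200 cGy replicates 1 and 7, and 1000 cGy replicates 2 to 6), with adjusted p up to 0.103. Among the genes whose products hold or ready the receptor, 2 fell at 1000 cGy by 1.81 and 0.87. They were Stip1, which encodes the adaptor between heat shock proteins, and Fkbp4, which encodes the immunophilin that links the receptor to its transport. Not all of that list fell, since of its 11 probes 3 were higher and 5 lower at 1000 cGy.

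Fkbp5 encodes the immunophilin that holds the receptor in a state of low hormone affinity, and it is one of the most used markers of receptor activity. Its lowest, median and highest values were -1.44, -0.67 and -0.08 in controls and -1.19, -0.91 and -0.67 on the 6 arrays at 50 cGy that measured it (replicate 1 was missing). The 200 cGy arrays gave -0.87, -0.34 and -0.04, and those at 1000 cGy gave -0.68, -0.40 and 0.50. The control arrays spread over more than 1 unit, and at each dose the arrays overlapped them. The mean was -0.23 ± 0.45 at 1000 cGy and -0.69 ± 0.46 in controls (SD, n = 7 each), a difference of 0.46 (SE 0.191, interval 0.06 to 0.85, adjusted p = 0.0376, limma), or 1.37-fold. This rise was small beside its spread. It was 0.21 (adjusted p = 0.354) without centring, and leaving out 1 of 6 single arrays (control replicate 1, 2 or 4, or 1000 cGy replicate 1, 2 or 6) ended the call, with adjusted p up to 0.11 among the 28 fits. The differences of 0.34 at 200 cGy (interval -0.06 to 0.73, adjusted p = 0.165) and -0.23 at 50 cGy (interval -0.63 to 0.18, adjusted p = 0.474) did not pass the test.

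Tsc22d3, also known as Gilz, encodes a leucine zipper protein that binds and restrains inflammatory transcription factors and is strongly raised by glucocorticoids in lymphocytes. Tsc22d3 was lower than in controls at 200 and 1000 cGy, and its difference at 50 cGy did not pass the test. Its lowest, median and highest values were 4.62, 4.76 and 4.90 in controls and 4.15, 4.57 and 4.93 at 50 cGy. At 200 cGy they were 3.83, 4.03 and 4.48, and at 1000 cGy 3.77, 3.95 and 4.17. All arrays at 200 and 1000 cGy were below all control arrays, which was the case for 9.60% of all probes at 200 cGy and 14.9% at 1000 cGy, and the 50 cGy arrays reached from below the controls to above them. At 1000 cGy the mean was 3.94 ± 0.15, against 4.75 ± 0.12 in controls (SD, n = 7 each), a difference of -0.81 (SE 0.111, adjusted p = 3.64e-07, limma), or 0.57-fold. At 200 cGy the difference was -0.66 (SE 0.111, adjusted p = 1.68e-05), or 0.632-fold, and at 50 cGy it was -0.23 (interval -0.46 to -0.00, adjusted p = 0.168). The falls at 200 and 1000 cGy kept their direction and call in each of the 28 fits that left out 1 array, without centring and with quantile normalization. Their size did not, at -1.06 at 1000 cGy without centring, and at -1.69 with quantile normalization. The sign at 50 cGy also depended on the scaling, at 0.03 with quantile normalization. The B cell markers, all 9 probes of which fell at the same doses, moved with it, and their part in the fall of Tsc22d3 was not tested. Of the 7 T cell marker probes none passed at 200 cGy, and at 1000 cGy 2 were higher and 3 lower. Quantile normalization gave 2 lower at 200 cGy and 6 lower at 1000 cGy, and no centring gave 1 and 4 lower, with none higher in either setting. The mean of the T cell probes lay between -0.08 and 0.21 at 200 cGy and between -0.35 and 0.03 at 1000 cGy, against -0.17 to 0.14 in controls, and its part was not tested either. Within doses it had a Pearson r of 0.21 with Tsc22d3 (permutation, adjusted p = 0.503), and of 0.73 with quantile normalization (adjusted p = 0.00539). The mean of the B cell marker genes had an r of 0.31 with Tsc22d3 (permutation, adjusted p = 0.35), and of 0.47 with quantile normalization (adjusted p = 0.18).

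Klf9 encodes a zinc finger transcription factor that the receptor raises directly in many tissues. Its lowest, median and highest values were 0.38, 0.42 and 0.73 in controls and 0.63, 0.89 and 1.03 at 50 cGy. They were 0.36, 0.82 and 1.23 at 200 cGy and 0.37, 0.65 and 1.06 at 1000 cGy. Groups overlapped at every dose, and 5 of the 7 arrays at 50 cGy were above all controls. Klf9 differed from controls by 0.35 at 50 cGy (SE 0.116, adjusted p = 0.0423, limma) and by 0.33 at 200 cGy (SE 0.116, adjusted p = 0.0239). Its difference at 1000 cGy was 0.18 (interval -0.06 to 0.42, adjusted p = 0.169). Klf9 was the only member that rose at 50 cGy, where its level was 1.28-fold that of controls. That call was close to the threshold and was lost in 10 of the 28 fits that left out 1 array (control replicates 1, 3, 5, 6 and 7, and 50 cGy replicates 2 and 4 to 7), with adjusted p up to 0.0864, and also without centring (0.39, adjusted p = 0.0585). The call at 200 cGy was lost without 200 cGy replicate 1 (adjusted p = 0.0678) or replicate 7 (adjusted p = 0.0577), without centring (difference 0.22, adjusted p = 0.19) and with quantile normalization (0.28, adjusted p = 0.0727). At 1000 cGy the sign depended on the scaling, at -0.07 without centring and -0.01 with quantile normalization.

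Sgk1 encodes a kinase of ion transport and cell survival that glucocorticoids and mineralocorticoids both raise. A palindromic glucocorticoid response element with the letters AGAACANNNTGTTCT was searched on both strands in RefSeq promoter windows (build GRCm38.p6, 250 bases before to 50 after each start site), and it occurred in 3 of 32851 windows, or 0.00913%. One of these is a window of Sgk1, at chr10:21993640-21993939 on the + strand, with the element 189 bases before the start site. The sequence is shown because Sgk1 rose at 200 and 1000 cGy and is the only one of the 6 members searched with this element in a window. The capitals mark that element and an E-box (CACGTG, searched on both strands and present in 7.15% of windows), and the E-box overlaps a further half-site of the element.
Sgk1: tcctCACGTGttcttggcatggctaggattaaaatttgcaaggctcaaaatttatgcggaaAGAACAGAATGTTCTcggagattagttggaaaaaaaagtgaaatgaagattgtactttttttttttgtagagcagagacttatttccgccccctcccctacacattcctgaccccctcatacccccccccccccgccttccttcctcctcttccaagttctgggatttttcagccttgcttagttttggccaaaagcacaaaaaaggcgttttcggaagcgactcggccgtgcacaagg
The half-site AGAACA alone, which also lies within the palindrome, was present in 19% of all windows. Sgk1 has 6 RefSeq start sites in this table, and the array does not say which one the probe's transcript uses. A match describes the letters of a window and does not show that the receptor binds there.

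Sgk1 rose by about the same amount at 200 and 1000 cGy. Its lowest, median and highest centred log2 ratios were -0.88, -0.41 and 0.07 in controls and -0.63, -0.33 and -0.02 at 50 cGy. The 200 cGy arrays gave -0.19, -0.02 and 0.33, and those at 1000 cGy gave -0.31, 0.07 and 0.48. Every dose group overlapped the controls, of which replicate 7 was the highest at 0.07 and the others lay at -0.27 or lower, below all arrays at 200 cGy. The mean was 0.05 ± 0.21 at 200 cGy and 0.06 ± 0.27 at 1000 cGy, and it was -0.48 ± 0.33 in controls (SD, n = 7 each). The difference was 0.53 (SE 0.134, adjusted p = 0.00193, limma) at 200 cGy and 0.54 (SE 0.134, adjusted p = 0.00101) at 1000 cGy, each 1.45-fold, and both calls held in all 28 fits that left out 1 array. Without centring the difference at 1000 cGy was 0.29 and missed the threshold (adjusted p = 0.0695). At 50 cGy the difference was 0.16 (interval -0.12 to 0.43, adjusted p = 0.457).

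Dusp1 encodes a phosphatase that switches off the stress-activated MAP kinases. It is raised by glucocorticoids and also, as an immediate early gene, by many stress and inflammatory stimuli through cAMP response elements. The RefSeq window of Dusp1 lies at chr17:26508423-26508722 on the minus strand (build GRCm38.p6). It is shown because Dusp1 rose most among the members, and the capitals mark a cAMP response element (TGACGTCA, in 1.79% of all windows, both strands searched) 143 bases before the start site and an E-box 126 bases before it.
Dusp1: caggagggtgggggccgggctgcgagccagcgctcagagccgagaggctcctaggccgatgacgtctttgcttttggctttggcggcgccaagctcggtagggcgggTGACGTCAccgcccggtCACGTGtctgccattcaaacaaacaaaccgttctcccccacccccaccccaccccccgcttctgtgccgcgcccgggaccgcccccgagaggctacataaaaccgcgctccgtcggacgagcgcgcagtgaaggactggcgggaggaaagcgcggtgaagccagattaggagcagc
No palindromic glucocorticoid response element and no half-site was found in this window, which says only that these letters are not in it.

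Dusp1 had a lowest, median and highest centred log2 ratio of 2.01, 2.08 and 3.68 in controls and of 1.76, 2.24 and 2.35 at 50 cGy. These values were 3.60, 3.88 and 4.06 at 200 cGy and 3.74, 4.32 and 4.47 at 1000 cGy. All arrays at 1000 cGy were above all controls, which was the case for 13.7% of all probes, and at 200 cGy 5 of 7 arrays were. The highest control, replicate 7 at 3.68, lay among the 200 cGy arrays, and the other 6 controls lay between 2.01 and 2.56. At 1000 cGy the mean was 4.21 ± 0.27, against 2.37 ± 0.61 in controls (SD, n = 7 each), a difference of 1.84 (SE 0.184, adjusted p = 1.37e-09, limma), or 3.58-fold. At 200 cGy the mean was 3.86 ± 0.18, a difference of 1.49 (SE 0.184, adjusted p = 1.62e-07), or 2.82-fold. Without control replicate 7 these differences were 2.06 at 1000 cGy (adjusted p = 6.63e-14, 4.17-fold) and 1.71 at 200 cGy (adjusted p = 8.97e-12, 3.28-fold). With quantile normalization they were smaller, at 0.94 at 1000 cGy (adjusted p = 0.00061) and 1.14 at 200 cGy (adjusted p = 0.00012). At 50 cGy Dusp1 averaged 2.18 ± 0.19, and its difference from controls was -0.18 (interval -0.56 to 0.19, adjusted p = 0.539), or 0.04 without control replicate 7 (adjusted p = 0.874).

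The neutrophil markers moved with Dusp1 across the arrays. Their mean was 1.26 on control replicate 7, and the other controls reached 0.08 at most, so that the control with the highest Dusp1 also had the highest neutrophil marker mean. Within doses, as deviations from each dose's mean over the 28 arrays, Dusp1 and the neutrophil marker mean had a Pearson r of 0.68 (permutation within doses, p = 0.0107, Benjamini-Hochberg adjusted p = 0.215 over 49 pairs of a member and a marker list) and a Spearman rho of 0.54 (p = 0.00529, adjusted p = 0.259). Without the 2 arrays farthest in Dusp1, r was 0.34 (adjusted p = 0.525), so the strength of the relation rests on those arrays. None of the 49 pairs passed after adjustment, and 7 had an unadjusted p under 0.05. With quantile normalization 5 pairs passed, and Dusp1 with the neutrophil markers was one of them (r = 0.81, adjusted p = 0.00539). The part of these cells in the rise of Dusp1 was not tested.

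**Figure D2:**
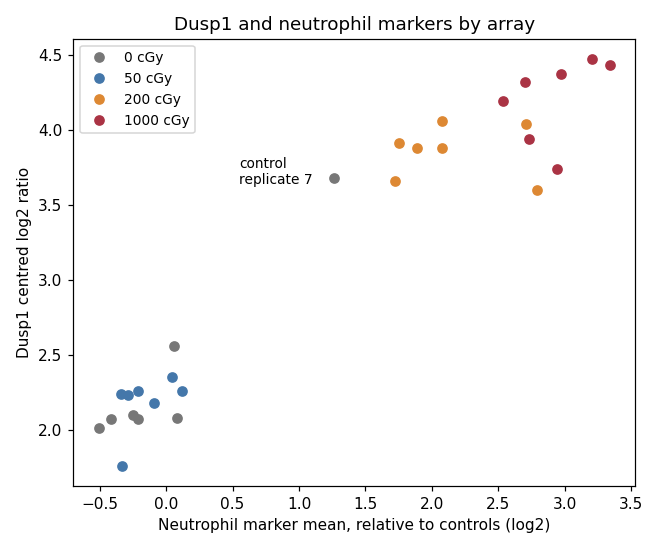
Dusp1 as a centred log2 ratio (vertical axis) against the mean of the 6 neutrophil marker genes (7 probes, those of 1 gene averaged first) relative to the control mean, in log2 units (horizontal axis), with 1 point for each of the 28 arrays coloured by dose in cGy. Control replicate 7 lies at 3.68 for Dusp1 and 1.26 for the marker mean, away from the other 6 controls, whose Dusp1 lies between 2.01 and 2.56.

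Per1 encodes a repressor of the circadian clock that glucocorticoids raise within hours in many tissues, and its level in blood cells also follows the time of day. One of its 2 RefSeq windows, at chr11:69098699-69098998 on the + strand (build GRCm38.p6), holds an E-box, the element through which the clock proteins Clock and Arntl drive Per1, 166 bases before the start site. The sequence is shown because Clock and Arntl were measured here too, and the capitals mark the E-box.
Per1: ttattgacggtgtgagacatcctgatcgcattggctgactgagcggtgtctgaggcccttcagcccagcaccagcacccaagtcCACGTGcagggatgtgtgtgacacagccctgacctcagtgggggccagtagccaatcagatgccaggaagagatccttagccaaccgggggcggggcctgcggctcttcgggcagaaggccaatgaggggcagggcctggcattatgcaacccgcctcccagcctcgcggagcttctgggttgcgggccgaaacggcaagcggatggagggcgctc
No palindromic glucocorticoid response element or half-site was found in either window of Per1. Of the other members, Fkbp5 had an E-box 169 bases before its start site, 1 of 3 windows of Tsc22d3 had a half-site, and the window of Klf9 had none of the 5 motifs searched, which included the TATA box TATAAA (both strands, 13.6% of all windows).

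Per1 fell at 1000 cGy. Its lowest, median and highest centred log2 ratios were 3.10, 3.31 and 3.48 in controls and 2.78, 3.53 and 3.73 at 50 cGy. They were 2.72, 2.97 and 3.32 at 200 cGy and 2.54, 2.90 and 3.24 at 1000 cGy. All groups overlapped the controls, and 4 of 7 arrays at 50 cGy were above them all. The mean was 2.90 ± 0.23 at 1000 cGy and 3.30 ± 0.13 in controls (SD, n = 7 each), a difference of -0.39 (SE 0.134, adjusted p = 0.0118, limma), or 0.762-fold. This call held in all 28 fits that left out 1 array and under both other scalings, although its size was -0.64 without centring and -1.22 with quantile normalization. At 200 cGy the difference of -0.32 narrowly missed the threshold (interval -0.59 to -0.04, adjusted p = 0.0562), and it passed without control replicate 5, 50 cGy replicate 1, 200 cGy replicate 1 or 5, or 1000 cGy replicate 5 (adjusted p from 0.028), without centring (-0.42, adjusted p = 0.0143) and with quantile normalization (-0.67, adjusted p = 0.000701). At 50 cGy the difference was 0.11 (interval -0.16 to 0.39, adjusted p = 0.605).

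**Figure D3:**
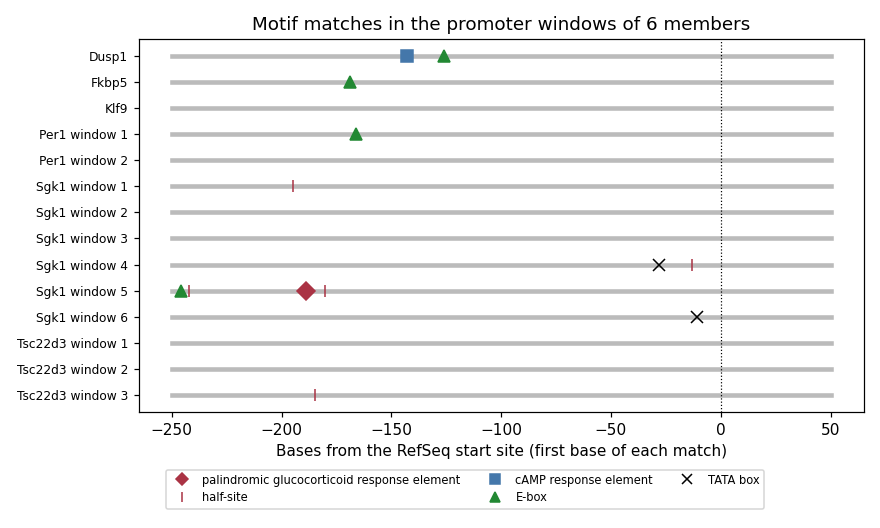
Matches of 5 motifs in the 14 RefSeq promoter windows of 6 members (rows), placed by the distance of the first base of the match from the start site in bases (horizontal axis). The only palindromic glucocorticoid response element is in window 5 of Sgk1, 189 bases before the start site, and the only cAMP response element is in the window of Dusp1, 143 bases before it.

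The step between 50 and 200 cGy held most of the movement among doses. At 200 cGy, relative to 50 cGy, 4 members rose and 2 fell, where 18.9% of all probes rose, 20.2% fell and 39.2% were called in either direction. Dusp1 was higher by 1.68 (SE 0.184, adjusted p = 4.39e-08, limma, 3.2-fold), with all 200 cGy arrays above all 50 cGy arrays. Nr3c1 was higher by 0.54 (SE 0.122, adjusted p = 0.000974), also without overlap, as were 8.60% of all probes. Fkbp5 was higher by 0.56 (adjusted p = 0.0267) and Sgk1 by 0.37 (adjusted p = 0.029), and neither call held without centring. The call of Fkbp5 was also lost without 50 cGy replicate 2, 3 or 4 or 200 cGy replicate 2 or 6 (adjusted p up to 0.0614), and that of Sgk1 without 50 cGy replicate 1 or 200 cGy replicate 1, 2 or 5 (adjusted p up to 0.0688). Tsc22d3 was lower by -0.43 (adjusted p = 0.00288) and Per1 by -0.43 (adjusted p = 0.012), or by -1.03 and -0.92 with quantile normalization. Klf9 differed by -0.03 (interval -0.26 to 0.21, adjusted p = 0.867). Without centring 2 members rose and 2 fell, with 1900 probes of the whole array higher and 4798 lower in place of 3141 and 3358. Quantile normalization gave 2446 higher and 3846 lower over the whole array.

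Between 200 and 1000 cGy no member passed the test (limma, adjusted p under 0.05), where 34.1% of all probes did, and 1 had an unadjusted p under 0.05. That was Nr3c1, higher at 1000 cGy by 0.27 (SE 0.122, adjusted p = 0.0799, limma), and it passed without 1000 cGy replicate 1 (0.32, adjusted p = 0.0455). Dusp1 was higher by 0.35 (interval -0.03 to 0.72, adjusted p = 0.141), and by the same 0.35 with a smaller error without control replicate 7 (SE 0.116, adjusted p = 0.0243), but with quantile normalization it differed by -0.20 (adjusted p = 0.548). The differences of Sgk1, at 0.01 (interval -0.27 to 0.28), and Per1, at -0.08 (interval -0.35 to 0.20), were the smallest of the 7. The level of Tsc22d3 was lower by -0.15 (interval -0.37 to 0.08, adjusted p = 0.3), and it passed without centring (-0.30, adjusted p = 0.038) and with quantile normalization (-0.69, adjusted p = 0.00257), where Per1 passed too (-0.55, adjusted p = 0.0113).

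**Figure D4:**
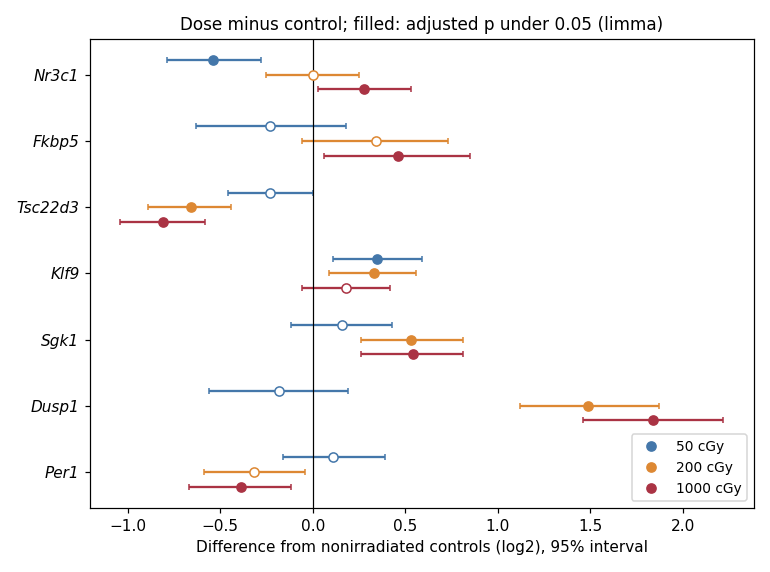
Difference from nonirradiated controls in log2 units (horizontal axis) for each member (rows) at 50, 200 and 1000 cGy (colours), with 95% intervals from the limma fit. Filled points have an adjusted p under 0.05, and Dusp1 at 1.84 and Tsc22d3 at -0.81 bound the differences at 1000 cGy.

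The other genes that glucocorticoids raise gave 14 measured genes of 26 in that list, on 17 probes. At 50 cGy no probe rose and 2 fell, those of the chemokine receptor Cxcr4 and 1 of 2 of the kinase subunit Pik3r1. There were 9 higher and 1 lower at 200 cGy, and 11 higher and 1 lower at 1000 cGy, with median differences of -0.00, 0.30 and 0.34. With quantile normalization 5 were higher and 6 lower at 1000 cGy, with a median of 0.10, and 8 were higher and 3 lower at 200 cGy. Nfkbia, the inhibitor of NF-kB that NF-kB itself also induces, had a lowest, median and highest level of 4.34, 4.60 and 4.98 at 1000 cGy, against 1.95, 2.29 and 2.96 in controls, and rose by 2.28 (SE 0.138, adjusted p = 6.86e-14, limma), or by 1.35 with quantile normalization. Anxa1, an anti-inflammatory protein that neutrophils and monocytes hold in quantity, lay at -0.19, 0.23 and 0.84 at 1000 cGy, against -2.95, -2.71 and -1.82 in controls, and rose by 2.88 (SE 0.183, adjusted p = 2.07e-13). Ddit4, an inhibitor of mTOR signalling that p53 and hypoxia also induce, rose by 1.19 at 1000 cGy (SE 0.157, adjusted p = 2.07e-07) and differed by 0.30 at 200 cGy (adjusted p = 0.121). Txnip, whose product inhibits thioredoxin, and Rgs2, a regulator of G protein signalling, differed by 0.01 and 0.15 at 1000 cGy and did not pass the test, and both were lower with quantile normalization. Txnip, Rgs2, Cxcr4 and Pik3r1, and likewise Ccl4, Il6, Ncoa1, Ptges3, Hsp90aa1, Bhlhe40, Tef and Jun in the related lists, were chosen after the values were seen.

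Genes that glucocorticoids lower mostly rose at 200 and 1000 cGy, the direction opposite to their list's name. Of 10 measured genes of 15, 1 rose at 50 cGy (the chemokine Ccl4), 8 rose at 200 cGy and none fell, and at 1000 cGy 7 rose and 1 fell. Of all probes 8.23% rose and 5.13% fell at 50 cGy. At 200 cGy 22.2% of all probes rose and 20.9% fell, and at 1000 cGy 38.3% rose and 28.9% fell. The median differences of this list were -0.03, 1.82 and 2.05 in order of dose. They were 0.01, 1.72 and 1.80 without centring, and 0.10, 1.46 and 1.32 with quantile normalization. Il1b, an inflammatory cytokine, lay at 8.16, 8.32 and 8.73 at 1000 cGy, against 4.90, 5.32 and 6.31 in controls, and rose by 2.95 (SE 0.195, adjusted p = 4.09e-13, limma). Tnf, a further such cytokine, lay at 4.00, 4.16 and 4.67 at 1000 cGy, against 0.74, 1.93 and 2.80 in controls, and rose by 2.37 (SE 0.191, adjusted p = 2.16e-11). Icam1, the adhesion receptor, rose by 1.35 (SE 0.115, adjusted p = 6.16e-11). With quantile normalization the rises were 1.34 for Il1b, 1.51 for Tnf and 0.81 for Icam1, and all of them kept their call. The gene that fell at 1000 cGy was Il6, by -2.13 (adjusted p = 2.44e-08). All 7 neutrophil and all 10 monocyte marker probes rose at 200 and 1000 cGy as well, and their part in these rises was not tested.

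The receptor machinery, its chaperones and coregulators, had 8 measured genes of 12 on 11 probes. At 50 cGy none rose and 2 fell, Stip1 and Hsp90aa1. There were 1 higher and 5 lower at 200 cGy, and 3 higher and 5 lower at 1000 cGy. At 1000 cGy there were 1 higher and 6 lower both without centring and with quantile normalization. The shares of all probes in the main fit were 8.23% higher and 5.13% lower at 50 cGy. They were 22.2% higher and 20.9% lower at 200 cGy, and 38.3% and 28.9% at 1000 cGy. The 1 higher at 200 cGy was 1 of 2 probes of the coactivator Ncoa1 (0.40, adjusted p = 0.0364), while the other differed by 0.09, and the call was lost without centring (adjusted p = 0.148) and with quantile normalization (adjusted p = 0.129). Stip1 had a lowest, median and highest level of -2.19, -1.62 and -0.99 at 50 cGy, against -1.69, -0.64 and -0.17 in controls, and it fell by 0.84 at 50 cGy (adjusted p = 0.0116, limma), by 1.20 at 200 cGy (adjusted p = 5.17e-05) and by 1.81 at 1000 cGy (adjusted p = 4.26e-08). Fkbp4 fell by 0.87 at 1000 cGy (SE 0.118, adjusted p = 3.16e-07) and by 0.55 at 200 cGy (adjusted p = 0.000357). Its relative Fkbp5, which opposes it on the receptor, rose at 1000 cGy by 0.46, a call lost without centring (0.21, adjusted p = 0.354, limma). Med1, a coactivator subunit, had 2 probes that disagreed, at -0.68 and 0.48, and so did the cochaperone Ptges3, at -0.58 and 0.70, so neither gene has a settled direction. Hsp90aa1, the chaperone itself, was lower at all 3 doses, by -0.69, -0.82 and -1.01.

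Of the clock genes, 10 of 14 were measured besides Per1. None passed at 50 cGy. At 200 cGy there were 1 higher and 5 lower, and at 1000 cGy 2 higher and 5 lower. Over the whole array 22.2% of probes rose and 20.9% fell at 200 cGy, or 43.1% in either direction. At 1000 cGy 38.3% rose and 28.9% fell, or 67.2% in either direction. The same shares apply to the immediate early genes below. The clock repressor Bhlhe40 was higher at both doses and the activator Tef at 1000 cGy (0.53, or 0.28 without centring). Arntl, which pairs with Clock to drive Per1, lay at 0.27, 0.36 and 0.45 at 200 cGy, against 1.02, 1.26 and 1.71 in controls, and fell by 0.94 at 200 cGy (SE 0.112, adjusted p = 9.76e-08, limma) and by 0.90 at 1000 cGy (adjusted p = 6.83e-08). Clock fell by 0.81 at 1000 cGy (SE 0.085, adjusted p = 3.72e-09), and Rora, the nuclear receptor that activates Arntl, fell by 1.08 (SE 0.122, adjusted p = 1.42e-08). All 3 falls kept their direction without centring and with quantile normalization. Immediate early genes, the class to which Dusp1 also belongs, had 14 measured of 16. There were 7 higher and 1 lower at 200 cGy, and 10 higher and 2 lower at 1000 cGy, although at 1000 cGy there were 4 higher and 3 lower with quantile normalization, and 7 higher and 2 lower without centring. Ier3, an early stress gene, rose by 2.96 at 1000 cGy (SE 0.228, adjusted p = 8.21e-12) and Atf3, a stress transcription factor, by 0.91 (SE 0.118, adjusted p = 1.49e-07), although Atf3 differed by only 0.30 with quantile normalization (adjusted p = 0.0705), while Myc, a growth regulator, fell by 1.90 (SE 0.167, adjusted p = 1.1e-10). The other one that fell was Jun, a component of AP-1, by 0.37 (0.62 without centring).

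**Figure D5:**
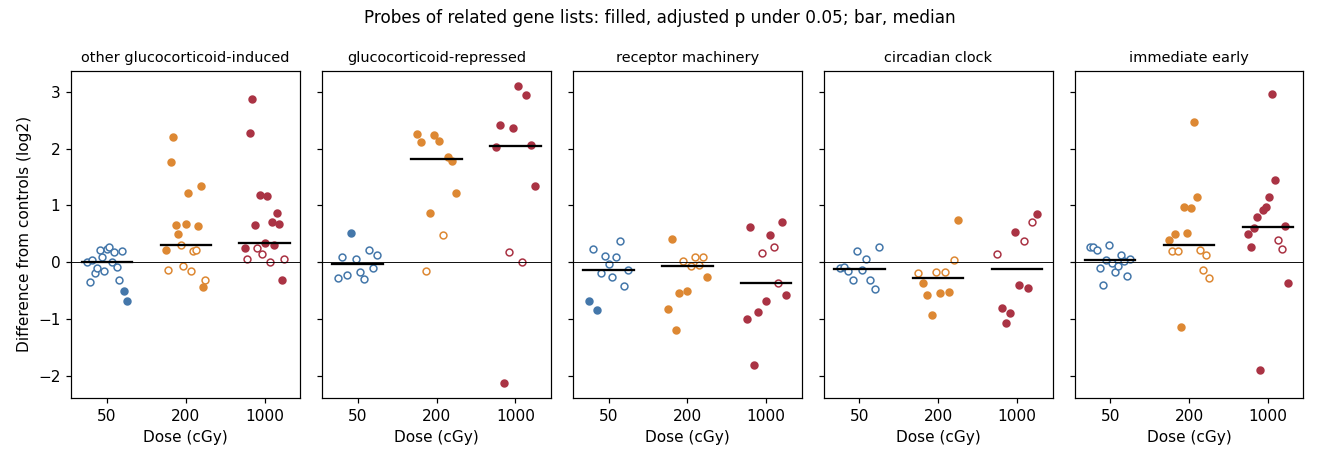
Difference from nonirradiated controls in log2 units (vertical axis) of each probe in 5 related gene lists (panels) at 50, 200 and 1000 cGy (horizontal axis). Filled points have an adjusted p under 0.05 and black bars are medians, which at 1000 cGy are 0.34 for the other glucocorticoid-induced genes and 2.05 for the glucocorticoid-repressed genes.

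Whether members varied together from array to array within doses depended on the scaling. Over the 21 pairs of members, deviations from each dose's mean gave no correlation that passed after adjustment (permutation within doses, adjusted p under 0.05), and 4 pairs had an unadjusted p under 0.05. The strongest of these was between Dusp1 and Nr3c1, with r = 0.53 (28 arrays, permutation p = 0.00435, adjusted p = 0.0913), rho = 0.50 (p = 0.0108, adjusted p = 0.114) and r = 0.47 without the 2 arrays farthest in Dusp1 (adjusted p = 0.32). The pair of classical hormone markers, Tsc22d3 and Fkbp5, had r = -0.21 (27 arrays, permutation p = 0.245, adjusted p = 0.438), rho = -0.24 (p = 0.229, adjusted p = 0.436) and r = 0.01 without the 2 farthest arrays. The direction of that pair depends on the scaling, since r was 0.11 with quantile normalization. Without centring 2 pairs passed, Per1 with Dusp1 (r = 0.40) and Dusp1 with Nr3c1 (r = 0.56), both at adjusted p = 0.04. With quantile normalization 3 pairs passed, Tsc22d3 with Per1 (r = 0.66, adjusted p = 0.00997), Per1 with Klf9 (r = 0.68, adjusted p = 0.00997) and Per1 with Dusp1 (r = 0.57, adjusted p = 0.025).

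The genes whose levels were most like each member's over the arrays were ranked by Pearson r among complete single-gene probes, as a description that includes the shared dose groups. Dusp1 was most like Lmnb1, Slc15a3 and Adam8, each with r = 0.98 over 28 arrays. Slc15a3 encodes a lysosomal transporter and Adam8 a protease, both known from myeloid cells, and they differed from controls by 2.62 and 2.76 at 1000 cGy. Tsc22d3 was most like Glcci1 (r = 0.90), a gene itself named for its induction by glucocorticoids in thymocytes, followed by Srrt and Cd69 (r = 0.88 each). Glcci1 differed from controls by -1.08 at 200 cGy and -1.41 at 1000 cGy, and Cd69, an early activation marker of lymphocytes, by -0.92 and -1.29. Sgk1 was most like the lysosomal protease gene Ctsa (r = 0.87), Spidr and Lfng (r = 0.84 each). Nr3c1 was most like Mtmr6 and H3f3b (r = 0.81 each) and the chaperone Hspa5 (r = 0.79), and Per1 like Sdha, Nae1 and Shisa5 (r = 0.81 each). Klf9 was most like Mrpl43 (r = 0.79), Clta and Tmem248 (r = 0.78 each), and Fkbp5, over 27 arrays, like Mmp23 (r = 0.81), Npdc1 and Olfml3 (r = 0.77 each).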

How the data were processed

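The authors hybridised amplified RNA of each sample (Cy5) with universal mouse reference RNA (Cy3) to spotted two-colour arrays, expressed each spot as a median of ratios, filtered out spots below a signal of 100 in one or both channels, and deposited the log2 of each ratio of sample to reference. Of ratios under 4, 97.4% were whole thousandths within 6e-05 log2 units, which fits that scale. For normalization between arrays the method was not given in the sources used, and the dyes were taken from the methods because some dye labels carry running numbers. Intensities were not used here, so no depth or signal over background is given, and the 7 arrays a dose limit the precision.

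The median of every array was subtracted from its values. A model of 4 group means was fitted with limma 3.58.1 in R 4.3.3 to the 16600 of 16722 probes with at least 5 values a group, with Benjamini-Hochberg adjustment over all probes, and was tested on simulated data. Relations between members used deviations from dose means and 100000 permutations within doses. The alternatives tried were quantile normalization, no centring, weights for arrays, robust moderation, other missing-value filters, averaged probes, only the groups compared, a replicate block, and leaving out each array. Leaving out both arrays that stood apart was added after seeing the data. Promoter windows are from RefSeq (GRCm38.p6) and were matched by symbol for 6 members. Named genes were all members, in each list the 3 genes of smallest adjusted p, the 3 genes most like each member, and 2 genes of each family. Members and lists were chosen with earlier results of these data known.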

Additional observations from a re-analysis of the deposited data

Results flagged for a closer look

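In each group of 7 arrays the gap between the most extreme array and its neighbour was compared with the group's range. This marked 2 of 28 groups of member values, and chance marks about 1 in 20 groups. Dusp1 stood at 1.76 on 50 cGy replicate 1, where the next lowest array was at 2.18. Dusp1 stood at 3.68 on control replicate 7, where the next highest was at 2.56. Among 28 groups of marker means 4 were marked. The neutrophil marker mean was 1.26 and the platelet marker mean -1.88 on control replicate 7, the same array as for Dusp1, and the nearest other controls were at 0.08 and -0.23. The platelet marker mean was 0.76 on 200 cGy replicate 1, with the next lowest at 1.55. The monocyte marker mean was 1.18 on 1000 cGy replicate 1, with the next lowest at 1.67.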

How the results depend on the processing

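No difference of a member changed sign where it was called. At 50 cGy the 2 called members became 1, Nr3c1, without centring, with the replicate block and without both arrays that stood apart, and 1 to 2 were called when single arrays were left out. At 1000 cGy the 6 called members became 3 without centring, which moves all probes of an array by 1 amount. Between 1000 and 200 cGy the count of 0 became 1 without centring (Tsc22d3), 2 with quantile normalization (Tsc22d3 and Per1), 1 with array weights (Nr3c1), 1 without both arrays that stood apart (Dusp1), and 0 to 1 when single arrays were left out. Pairs of members that passed went from 0 to 2 without centring and 3 with quantile normalization, and pairs of a member with a marker list from 0 to 5 with quantile normalization. The cause was not tested. Same-numbered arrays of different doses did not deviate together on average (mean r = -0.017 over 42 pairs, against 0.002 over 252 pairs of other numbers). These values gave no sign that the replicate numbers pair samples, and they cannot exclude it. The replicate block ended the calls of Klf9 at 50 cGy (adjusted p = 0.0549, limma) and of Fkbp5 at 1000 cGy (adjusted p = 0.0589, limma) and at 200 against 50 cGy (adjusted p = 0.0515). Fitting only the groups compared ended the calls of Fkbp5 (adjusted p = 0.0852) and Nr3c1 (adjusted p = 0.0649) at 1000 cGy and added that of Per1 at 200 cGy (adjusted p = 0.0324). With 7 arrays a dose and no intensities, small differences such as that of Fkbp5 cannot be set against the background signal of their probes.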

Other observations

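Relatives of the members by gene family were counted as well. At 1000 cGy 38.3% of all probes rose, 28.9% fell and 67.2% were called, which leaves little to read from the family counts. Of 12 other Dusp genes on 15 probes, at 1000 cGy 9 probes were higher and 2 lower (6 higher and 3 lower with quantile normalization). Dusp23, an atypical phosphatase, lay at 3.34, 4.26 and 4.96 (lowest, median and highest) at 1000 cGy, against 0.38, 1.77 and 2.66 in controls, and was already higher at 50 cGy by 1.35 (SE 0.304, adjusted p = 0.00436, limma), where Dusp1 differed by -0.18. Dusp14 rose by 1.20 at 1000 cGy (SE 0.185, adjusted p = 2.39e-06). Of 11 other Klf genes on 13 probes, 8 were higher and 2 lower at that dose, or 6 higher and 3 lower with quantile normalization. Klf3 rose by 1.34 (SE 0.136, adjusted p = 1.78e-09) and Klf7 by 1.00 (SE 0.0983, adjusted p = 9.2e-10), where Klf9 itself differed by 0.18, and with quantile normalization these rises were 0.59 and 0.47.

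Tsc22d2, a relative of Tsc22d3, fell by 0.34 at 50 cGy (adjusted p = 0.045, limma, and 0.139 without centring), by 0.93 at 200 cGy (adjusted p = 1.22e-07) and by 1.37 at 1000 cGy (adjusted p = 3.09e-11). Tsc22d4 fell by 0.28 at 50 cGy (adjusted p = 0.0296), a call lost without centring (adjusted p = 0.0658) and with quantile normalization (adjusted p = 0.0597). At 1000 cGy it differed by 0.07 (adjusted p = 0.475), by -0.18 without centring and by -0.43 with quantile normalization (adjusted p = 0.000109). Among 9 other Fkbp genes 5 rose and 2 fell at 1000 cGy, where 38.3% of all probes rose and 28.9% fell. Fkbp3, a nuclear immunophilin, fell by 1.65 (SE 0.0979, adjusted p = 5.13e-14). Sgk3 differed by 0.51 at 1000 cGy (adjusted p = 0.0221) and by -0.02 with quantile normalization. Nr3c2, the mineralocorticoid receptor, which also binds glucocorticoids, differed by -0.36 at 1000 cGy (adjusted p = 0.0586), and by -0.61 without centring (adjusted p = 0.00554).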
